A study of Mus musculus with 23 samples.

Results

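The snoRNAs of the Prader-Willi region and their host genes were followed in mouse hippocampal synaptosomes and in the neurites of cultured hippocampal neurons. Members were chosen by name. In the snoRNA tables, the names starting with SNORD115, SNORD116, SNORD64 or SNORD107 gave 7 entries under 5 names of 865 entries, and 6 of the 7 held a count. No entry was named SNORD107. In the total RNA tables, the symbols starting with Snord115 or Snord116 plus Snhg14, Snrpn, Snurf, Ube3a, Ndn, Magel2 and Mkrn3 gave 24 of 48709 genes, of which 17 were Snord116 genes and none carried a Snord115 symbol. A count was present for 8 of these 24 genes, namely 2 Snord116 genes and 6 of the 7 host and protein-coding genes.

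The series holds 23 samples. Synaptosomes, which are pinched-off nerve terminals with attached postsynaptic membrane, came from hippocampi of untreated C57B/6J mice at 3 month of age, in 3 pools sequenced for both total and small RNA. KCl chambers were CD1 hippocampal neurons from E17 embryos at day 14 in vitro, given 50 mM KCl for 2 h, of which 3 were sequenced for total RNA. Control chambers were the same cultures with no stimulation, with 8 libraries of total RNA and 6 of small RNA. A microfluidic chamber leads neurites into a narrow channel apart from the cell bodies, and the channel was cut out for RNA. Each synaptosome pool combined several animals, and chamber RNA for total RNA libraries was pooled from several chambers. Synaptosomes and chambers differed at once in preparation, strain, age and library kit, so these cannot be told apart in any comparison between them. In bulk RNA, fewer cells of a type and less RNA per cell cannot be told apart either. Nothing in the labels said that the chamber libraries came from separate cultures, so p-values measure the spread between these libraries, which may be technical.

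The Prader-Willi region of mouse chromosome 7 is imprinted. On the paternal copy a long transcript starts near Snurf-Snrpn and runs through Snhg14, and its introns release the box C/D snoRNAs SNORD64, SNORD116 and SNORD115, while its far end runs antisense to Ube3a. Box C/D snoRNAs carry a C box and a D box bound by fibrillarin and its partners and usually guide methylation of other RNAs. SNORD116 and SNORD115 lie in long tandem arrays, are made mainly in neurons and are called orphan snoRNAs because no methylation target is established for them. Loss of the paternal SNORD116 array is linked to Prader-Willi syndrome in people, and loss of maternal UBE3A to Angelman syndrome.

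In GENCODE vM21 on the GRCm38 (mm10) build, 70 SNORD116 copies lay on the minus strand of chromosome 7 between 59673461 and 59904848. A further 136 SNORD115 copies lay between 59344073 and 59619095. Most copies carry a predicted-gene name, so that the snoRNA tables listed 9 entries from the SNORD116 array, of which 3 were named SNORD116, and 57 entries from the SNORD115 array, of which 3 were named SNORD115. The SNORD116 copies below, each 94 bases long, are shown because the counts divided by the letters at which they differ. Capitals mark the positions that vary among the 8 named copies of the tables, counted from 1 at the 5′ end. Names were matched to GENCODE symbols, and the sequences of the table entries themselves were not used here.
Gm26504: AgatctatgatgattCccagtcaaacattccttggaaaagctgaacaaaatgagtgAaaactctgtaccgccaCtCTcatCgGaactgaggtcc
Snord116l9: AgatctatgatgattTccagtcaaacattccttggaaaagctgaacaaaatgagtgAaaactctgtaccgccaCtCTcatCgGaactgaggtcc
Snord116l12: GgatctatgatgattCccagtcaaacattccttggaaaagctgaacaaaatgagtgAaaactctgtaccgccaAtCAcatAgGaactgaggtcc
Snord116l14: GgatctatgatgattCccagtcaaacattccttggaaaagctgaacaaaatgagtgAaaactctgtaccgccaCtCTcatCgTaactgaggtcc
Gm25615: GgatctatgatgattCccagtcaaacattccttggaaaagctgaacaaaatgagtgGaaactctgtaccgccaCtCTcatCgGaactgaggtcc
Against Gm26504, Snord116l9 had the difference C16T alone. Snord116l14 had A1G and G83T, Gm25615 had A1G and A57G, and Snord116l12 had A1G, C74A, T77A and C81A. The C box letters TGATGA stood at bases 8 to 13 of Gm26504 and the D box letters CTGA at bases 86 to 89, so the differing bases near the 3′ end lay just ahead of the D box. These copies lie at chr7:59675988-59676081 for Gm26504, chr7:59897161-59897254 for Snord116l9, chr7:59904755-59904848 for Snord116l12, chr7:59871864-59871957 for Snord116l14 and chr7:59864240-59864333 for Gm25615. All 5 are on the minus strand, and GENCODE annotates each as a snoRNA gene.

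SNORD115 and SNORD64 are shown for their own features. In the SNORD115 copies, capitals mark the stretch complementary to Htr2c, the serotonin 2C receptor gene, whose pre-mRNA is a reported partner of SNORD115. In Snord64 they mark the C and D boxes.
Gm24866: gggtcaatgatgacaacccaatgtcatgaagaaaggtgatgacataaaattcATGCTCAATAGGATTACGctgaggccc
Gm24137: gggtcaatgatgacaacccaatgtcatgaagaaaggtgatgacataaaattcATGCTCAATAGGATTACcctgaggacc
Snord64: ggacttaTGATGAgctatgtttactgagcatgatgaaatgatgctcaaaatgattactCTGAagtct
The longest run of Htr2c complementary to Gm24866 was 18 bases, CGTAATCCTATTGAGCAT, in a coding exon at chrX:147169689-147169706 on the plus strand. It pairs with bases 53 to 70 of Gm24866, and 105 of the 136 SNORD115 copies carried all 18 bases. Gm24137 holds the first 17 of these bases and differs from Gm24866 by G70C and C77A, with positions counted from 1 at the 5′ end and the base of Gm24866 first. Gm24866 lies at chr7:59393561-59393639, Gm24137 at chr7:59610133-59610211 and Snord64 at chr7:59978808-59978874, all on the minus strand.

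Depth set how firmly the values can be read. Total RNA libraries held 14714196 to 16667516 counts in synaptosomes, 2632490 to 80883504 in KCl chambers and 722529 to 48281227 in control chambers. The snoRNA tables were shallow, with 7680 to 16305 counts in synaptosomes and 7037 to 64276 in control chambers. In synaptosomes, 408 gene models that share ribosomal RNA or satellite reads or are mitochondrial took 90.6 to 91.6% of total RNA counts, against 1.07 to 23.5% in control chambers and 18.5 to 27.4% in KCl chambers. The labelled material was checked against marker lists. Neuron markers summed to 951 to 1360 CPM, which are counts scaled to the library total, in synaptosomes, against 722 to 5450 CPM in control chambers, and astrocyte markers to 2190 to 3050 CPM, against 907 to 16300 CPM. Oligodendrocyte markers summed to 222 to 310 CPM in synaptosomes and 228 to 1280 CPM in control chambers, microglia markers to 179 to 225 CPM, against 15 to 263 CPM, and vascular markers to 1.22 to 1.92 CPM, against 2.26 to 359 CPM. In the fit over all genes, where 2.27% were called higher in synaptosomes, the higher markers were 2 of 7 for neurons, 3 of 10 for astrocytes, 3 of 7 for oligodendrocytes, 7 of 8 for microglia and none of 5 vascular genes, and no listed marker was called lower. The part of glial RNA in the results was not tested. In KCl chambers, neuron markers summed to 1980 to 5260 CPM and no marker was called against control chambers. Control library sc3 was the deepest of the controls and stood apart from them for several members, so the results that rest on it are given with and without it.

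The main small RNA question was how the abundance of the region's snoRNAs compared between isolated synapses of the brain and neurites in chambers. Of the 5 member names, 3 were higher in synaptosomes (SNORD64, SNORD116L9 and SNORD115) and 2 were lower (SNORD116L12 and SNORD116L14). Calls used edgeR's quasi-likelihood test at a Benjamini-Hochberg adjusted p of at most 0.05 over 193 names. In the same fit 82.9% of all names were called, 33.7% higher and 49.2% lower, so a call of a member was close to what most names gave. The median log2 fold change was 1.25 over the 5 members and -1.12 over the 193 names.

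SNORD116L12 had 11, 18 and 10 counts in synaptosome pools 1, 2 and 3, which is 1432, 1104 and 665 CPM of snoRNA counts, against 59126 to 68772 CPM with a median of 62263 CPM in the 6 control chambers. SNORD116L14 had 1432, 1533 and 665 CPM in the synaptosome pools, against 59334 to 69001 CPM with a median of 62561 CPM in control chambers. No synaptosome pool came near any chamber for either name. The log2 fold change was -6.15 (SE 0.38, edgeR adjusted p = 6.64e-09) for SNORD116L12 and -5.92 (SE 0.41, edgeR adjusted p = 2.73e-08) for SNORD116L14. By mean CPM, SNORD116L14 ranked 2 of 865 entries in control chambers and 100 in synaptosomes.

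SNORD116L9 went the other way. It had 6380, 8770 and 6055 CPM in the synaptosome pools, against 1279 to 2434 CPM with a median of 2354 CPM in control chambers. The groups did not overlap, and the log2 fold change was 1.54 (SE 0.36, edgeR adjusted p = 0.00109). SNORD116L9 ranked 20 of 865 entries in synaptosomes and 68 in control chambers. Without control chamber C05 or C11 SNORD116L9 was no longer called, with log2 fold changes of 1.15 and 1.06 (edgeR adjusted p = 0.0626 and 0.0979).

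The entries of the SNORD116 array divided by their letters, and they did so differently in the 2 preparations. In every control chamber the 8 entries with C at base 16 had nearly the same count, for example 3058 to 3112 in C07, whereas SNORD116L9, with T there, had 113. In every synaptosome pool the 5 entries whose bases 81 to 83 read CGG had the higher counts, 113 to 148 in pool 2, and the 4 entries with other letters there had 18 to 25. SNORD116L9 belonged to the high entries of synaptosomes and was far below the rest in chambers. GM26504, whose GENCODE sequence has both C at base 16 and CGG at bases 81 to 83, was high in both.

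The size of the difference between preparations therefore depended on the entry used. Control chamber CPM over synaptosome CPM was 59.1 for SNORD116L12 and 52.3 for SNORD116L14, but 8.54 for the higher GM26504 entry and 0.293 for SNORD116L9. The log2 fold change of GM26504 was -3.29 (SE 0.33, edgeR adjusted p = 7.7e-07), and that of GM25615 was -3.41. Of the 8 names of the array, 7 were lower in synaptosomes and SNORD116L9 was higher, against 49.2% lower and 33.7% higher of all names. How a read that matches several entries was counted is not given in the sources used here, so the near-equal entries are not independent measurements. Summed, the 9 entries took 47.5 to 55.4% of chamber snoRNA counts and 3.27 to 4.72% of synaptosome counts, whereas the highest entry alone took 5.95 to 6.95% in chambers and 0.652 to 0.908% in synaptosomes. Which stretch of the RNA the reads covered was not tested.

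**Figure D1:**
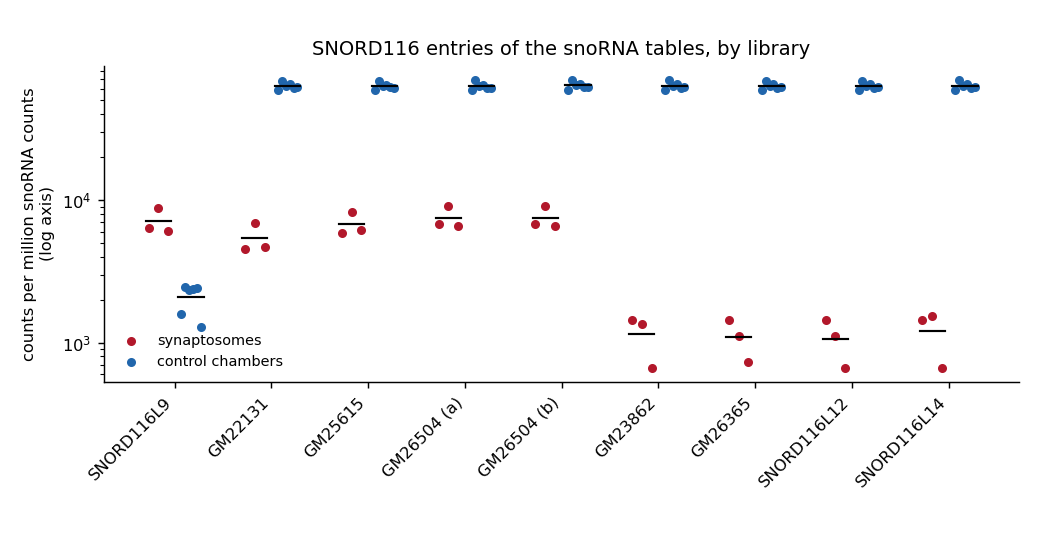
CPM of snoRNA counts on a log axis for the 9 entries of the SNORD116 array, with 1 point per library, 3 synaptosome pools in red and 6 control chambers in blue, and black lines for means. The 8 entries with C at base 16 average 63037 to 63659 CPM in chambers, SNORD116L9 is the exception with a mean of 2071 CPM, and the synaptosome points step down for the 4 entries on the right. Entries (a) and (b) of GM26504 are its 2 listings.

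SNORD115, the brain snoRNA with the stretch complementary to Htr2c, was listed 3 times under its own name. The entry URS0000846DB2 had 4036, 4293 and 2927 CPM in synaptosome pools 1 to 3, against 521 to 1870 CPM with a median of 1503 CPM in control chambers. The entry URS00008472B9 had 130, 0 and 0 CPM in these pools, against 1237 to 2542 CPM with a median of 1828 CPM in control chambers. The third entry, URS00008648B0, had no count in any of the 9 libraries.

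The 2 counted entries thus lay on opposite sides, each without overlap between groups. The first, which stood for the name because its mean was higher, had a log2 fold change of 1.25 (SE 0.42, edgeR adjusted p = 0.0136). Fitted as its own row, an alternative chosen after seeing the data, the second had -6.06 (SE 0.84, edgeR adjusted p = 1.03e-05). With the entries summed, the log2 fold change of SNORD115 was 0.06 (edgeR adjusted p = 0.899). Leaving out C05, C11 or synaptosome pool 2, or the filter on low counts, also ended the call, with log2 fold changes of 0.61 to 0.94 and an edgeR adjusted p of up to 0.37, so the direction of SNORD115 as a name rested on the entry used.

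Across the SNORD115 array, 41 names were tested, of which 32 were higher in synaptosomes and 6 were lower, against 33.7% and 49.2% of all names, with a median log2 fold change of 3.19. The near-identical entries are not separate measurements, so these calls are not independent. The 57 entries together took 15.2 to 24.1% of synaptosome snoRNA counts, against 2.15 to 5.85% in control chambers, where a read may stand in more than 1 entry. GM24866, printed above with all 18 bases complementary to Htr2c, had a log2 fold change of 1.46 (SE 0.35, edgeR adjusted p = 0.00142). GM24137, whose GENCODE sequence differs at bases 70 and 77, had 1 count over the synaptosome pools and 413 over the control chambers, with a log2 fold change of -6.14 (SE 0.83, edgeR adjusted p = 1.12e-05).

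The split again went with the 3′ letters, though not without overlap. Of the 51 counted SNORD115-array entries of the usual 79 bases, 27 ended in the commonest 20 bases and had 172 to 264 counts summed over the synaptosome pools, with a median of 228. The other 24 had 0 to 210, with a median of 9. In control chambers the same 2 sets had medians of 81 and 41 counts and overlapped widely, from 8 to 842 and from 1 to 832. The exact 18-base stretch complementary to Htr2c divided the entries much alike. In synaptosomes the 30 entries with it had a median of 227 counts, and the 21 without it had 7. The stretch and the last 20 bases overlap, so which of them the split followed cannot be told.

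SNORD64, a lone box C/D snoRNA that lies between Snhg14 and Snrpn, had the largest ratio of the member names that were higher in synaptosomes. It had 2995, 4968 and 3061 CPM in synaptosome pools 1 to 3, against 0 to 416 CPM with a median of 160 CPM in control chambers. C42 had no SNORD64 count, which at its depth allows up to 426 CPM, and the chamber values rest on 47 counts in all. The log2 fold change was 3.89 (SE 0.55, edgeR adjusted p = 1.82e-05), with an adjusted p of at most 0.000104 when any library was left out.

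**Figure D2:**
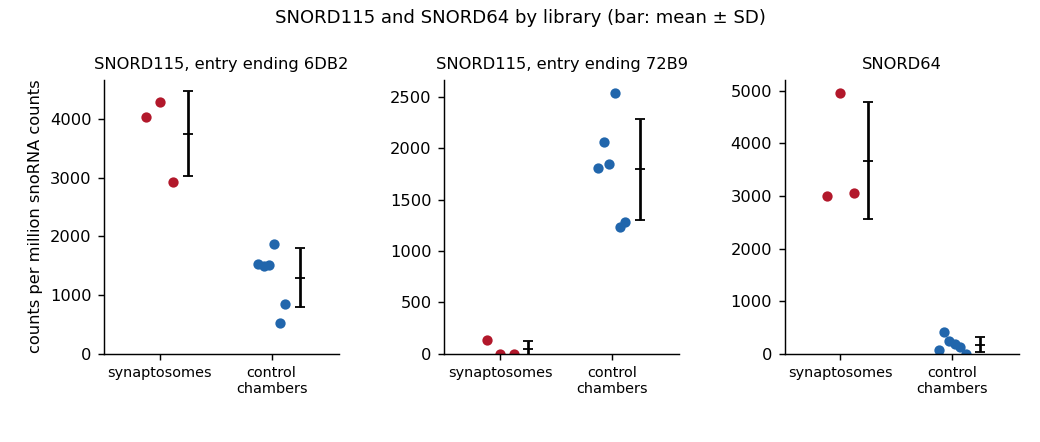
CPM of snoRNA counts for both counted SNORD115 entries and for SNORD64, with 1 point per library and black bars for mean ± SD, synaptosomes (n = 3) left and control chambers (n = 6) right. SNORD115 entry URS0000846DB2 averages 3752 CPM in synaptosomes and 1296 CPM in chambers, entry URS00008472B9 averages 43.4 and 1796 CPM in the same order, and SNORD64 averages 3674 and 173 CPM.

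As families, the member names of SNORD116 took 0.739 to 1.14% of snoRNA counts in synaptosomes and 12 to 14% in control chambers. SNORD115, by its highest entry, took 0.293 to 0.429% in synaptosomes and 0.0521 to 0.187% in control chambers. With its entries summed it took 0.293 to 0.429% in synaptosomes and 0.176 to 0.441% in control chambers, which overlapped, at a log2 difference of 0.34 (exact permutation p = 0.31). SNORD64 took 0.299 to 0.497% in synaptosomes and 0 to 0.0416% in control chambers. Between the preparations edgeR called 82.9% of all 193 names. With the highest entry of each name, none of the 3 shares overlapped between the preparations, and overlap was not counted over all names. The differences in mean log2 share, with 0.5 counts added, were -3.8, 1.61 and 4.41, each at p = 0.0238 in an exact two-sided permutation test (adjusted p = 0.0238 over 3 tests), which is the smallest p that 3 against 6 allow. SNORD116L12 and SNORD116L14, which make up most of the SNORD116 share in chambers, had 12659 and 12713 counts over the chambers. In each chamber their counts were near-equal, for example 852 and 855 in C01 and 944 and 944 in C11. The 12 to 14% and the difference of -3.8 may therefore count the same reads under both names, which was not tested. The totals are touched too, since the 9 SNORD116-array entries made up 47.5 to 55.4% of chamber snoRNA counts. Any repeated counting there would lower the chamber shares and CPM of SNORD115, SNORD64 and the other names.

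Total RNA asked the same of the host transcripts. Of the 7 members that passed the filter on low counts, none was called between synaptosomes and control chambers by edgeR, where 6.71% of 29926 genes were called, 2.27% higher and 4.44% lower. Unadjusted, 2 members had p under 0.05 in edgeR, a share that was not counted over all genes and so cannot be judged. DESeq2 called 2 lower, Snord116l12 and Mkrn3, where it called 25.8% of all genes lower. The same 2 names were called by edgeR once control library sc3 was left out, where 24.3% of all genes were called lower. The median log2 fold change was -0.19 over the 7 members and -3.21 over all genes tested. After TMM scaling the member median thus lay above that of all genes, although Snord116l12 and Mkrn3 lay below it. The split of calls moved with the scaling and with the number of pools: 33.9% of the called genes were higher in synaptosomes as fitted, and 64.1% once 408 gene models of ribosomal, satellite or mitochondrial reads were left out, with a median of -1.16 over all genes. Without any 1 synaptosome pool the share was 89.7 to 90.5%, with 56 to 70 genes called lower.

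The scale decided the direction. With the library total as the only scaling, edgeR called 27910 of 29926 genes lower in synaptosomes. Overlap between the groups was not counted over all genes. Snhg14, the long noncoding host of the snoRNA arrays, had 13.8, 14.4 and 12.5 CPM in synaptosome pools 1 to 3, against 21.4 to 280 CPM with a median of 157 CPM in control chambers. No pool reached the lowest chamber, and the difference in mean log2(CPM + 0.1) was -3.34 (exact permutation p = 0.0121, adjusted p = 0.0363 over 12 tests). Once the 408 models were left out of the totals, Snhg14 had 135 to 170 CPM in synaptosomes and 21.6 to 329 CPM in control chambers, the difference shrank to -0.1, and the groups overlapped (exact permutation p = 0.594). In edgeR with TMM the log2 fold change was 0.25 (SE 0.59, adjusted p = 0.746).

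Snrpn, whose protein belongs to the spliceosomal core in neurons, had 15.5, 19.1 and 19.4 CPM in the synaptosome pools, against 44.3 to 1552 CPM with a median of 156 CPM in control chambers. Ube3a, the ubiquitin ligase of Angelman syndrome, had 22.1, 20.4 and 18.2 CPM, against 101 to 217 CPM with a median of 159 CPM. Both were below every chamber on the whole-table scale, by -3.23 and -2.89 on the log2 scale (exact permutation p = 0.0121 each). By the library total alone, edgeR called 27910 of 29926 genes lower. Without the 408 models the differences were 0.01 for Snrpn and 0.36 for Ube3a, and both overlapped.

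The intronless genes beyond Snrpn were sparser. Ndn, which encodes necdin, had 7.2, 5.46 and 4.5 CPM in the synaptosome pools, against 0 to 228 CPM with a median of 36.2 CPM in control chambers. Magel2, a regulator of ubiquitin ligases, had 0.408, 0.42 and 0.304 CPM, against 0.0414 to 26.7 CPM with a median of 6.6 CPM. Both overlapped between the groups. Mkrn3, a ring finger protein known for restraining puberty, had 2, 1 and 0 counts in the 3 pools, against 3.95 to 67.1 CPM in control chambers.

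Among the host and protein-coding genes, Mkrn3 was the one whose level stayed lower on both scales, from 3 counts over the pools. Its groups did not overlap with or without the 408 models, at log2 differences of -4.8 without them and -6.27 with them (exact permutation p = 0.0121 each). With so few counts, these differences lean on the 0.1 CPM added to each value. In edgeR the log2 fold change of Mkrn3 was -4.04 (SE 1.28, adjusted p = 0.0596), and -3.64 without sc3 (adjusted p = 0.022). Without the 408 models, edgeR called 0 of the 7 members lower. Snurf, the upstream open reading frame gene that shares its exons with Snrpn, was at 0 counts in all 14 libraries. At 3 counts this allows up to 0.18 to 0.204 CPM in synaptosomes and 0.0621 to 4.15 CPM in control chambers. Its exons lie inside other gene models, so a 0 says nothing on the transcript itself.

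**Figure D3:**
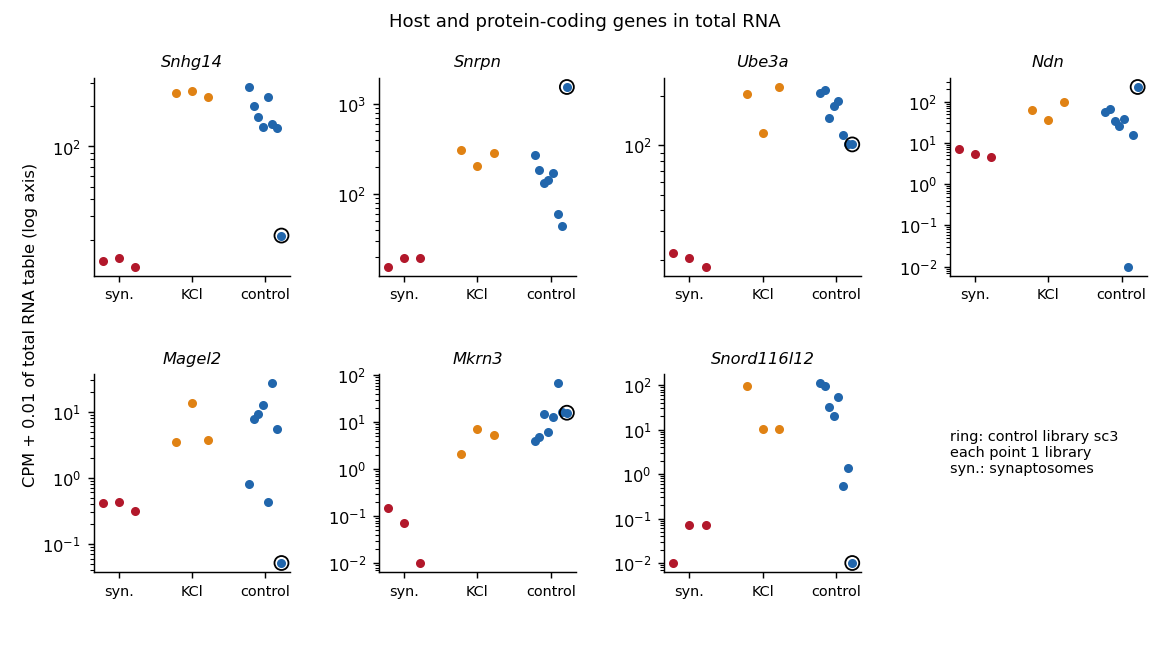
CPM plus 0.01 of the total RNA tables on log axes for 7 members, with 1 point per library and synaptosomes left of KCl chambers and control chambers. Synaptosome points lie below every control chamber for Snrpn, Ube3a, Snhg14 and Mkrn3, and the ringed control library sc3 has the highest Snrpn (1552 CPM) and Ndn (228 CPM) and the lowest Snhg14 (21.4 CPM) and Magel2 (0.0414 CPM) of the control chambers. By the library total alone, edgeR called 27910 of 29926 genes lower in synaptosomes.

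Ratios within a library do not move with the totals. Snhg14 over Ube3a was 0.625, 0.706 and 0.689 in synaptosome pools 1 to 3, against 0.212 to 1.35 with a median of 1.2 in control chambers. The 7 control chambers other than sc3 had 0.813 or more, so that the overlap came from sc3. The difference in mean log2 ratio was -0.46 with all controls (exact permutation p = 0.436, adjusted p = 0.642 over 4 tests), and -0.76 without sc3 (exact permutation p = 0.0167). The latter p is unadjusted and the smallest that 3 against 7 allow. It restates that the groups separate once the overlapping library is left out.

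Snhg14 over Snrpn was 0.891, 0.755 and 0.646 in the synaptosome pools, against 0.0138 to 3.06 with a median of 1.16 in control chambers. sc3 again stood alone at 0.0138, and the others had 0.969 or more. The log2 difference was -0.11 with all controls (exact permutation p = 0.558) and -0.95 without sc3 (exact permutation p = 0.0167). Here too the p without sc3 is unadjusted and the smallest the design allows. The lncRNA tables gave Snhg14 1.18 to 1.21 times the total RNA count in synaptosomes and 1.92 to 7.33 times in control chambers. With those counts the edgeR log2 fold change was -1.37 (adjusted p = 0.148) and the difference in mean log2(CPM + 0.1) was -4.99 (exact permutation p = 0.0121). Snhg14 and Ube3a overlap on opposite strands and the strand setting of the counting is not given in the sources used here, so their reads may not be fully apart.

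**Figure D4:**
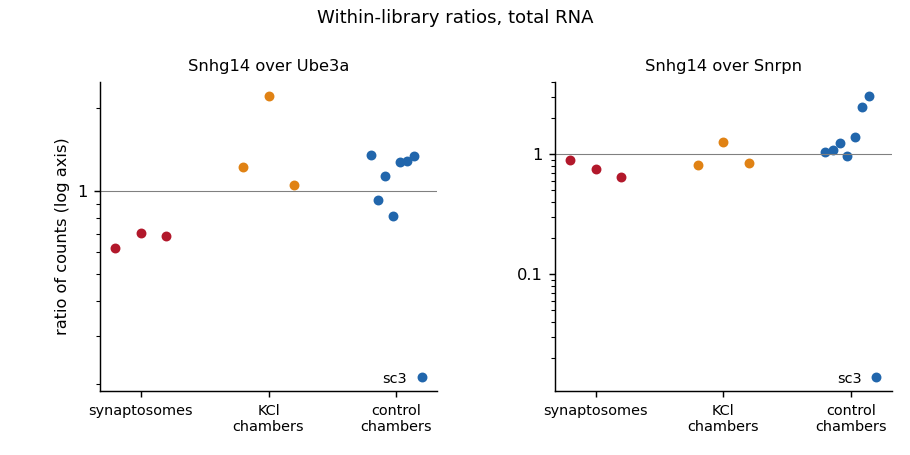
Ratio of Snhg14 counts to Ube3a counts (left) and to Snrpn counts (right) on log axes, with 1 point per library and a grey line at a ratio of 1. All 3 synaptosome pools lie below 1 in both panels and below every control chamber except sc3, while KCl chambers span 1.05 to 2.21 for Ube3a and 0.81 to 1.27 for Snrpn.

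The snoRNAs themselves were nearly missing from synaptosome total RNA. Snord116l12 had 0, 1 and 1 counts in pools 1 to 3, against 0 to 380 in control chambers, where 7 of 8 libraries held a count. Its edgeR log2 fold change was -6.1 (SE 2.11, adjusted p = 0.0753), and -6.09 without sc3 (adjusted p = 0.00735). These fitted values depend on the prior count. Over all 70 SNORD116 copies the pools held 2 counts, against 4340 in control chambers, and over the 136 SNORD115 copies 1 count against 917. Snord64 and Snord107 were at 0 in every total RNA library. Counts under the names SNORD116L9 and SNORD64 were therefore present in the small RNA of these pools and not in their total RNA. The total RNA libraries came from other kits. Since SNORD116L9 had nearly the count of GM26504 in each pool, 143 and 148 in pool 2, its reads may not come from that copy alone.

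Counts in total RNA fell on the copies whose sequence no other copy shares. The 70 SNORD116 copies held 27 distinct sequences, the commonest of them in 30 copies, and 20 copies were unique. These 20 took 99.1% of the 11943 SNORD116 counts of the 14 libraries. Snord116l12, the copy nearest to Snrpn, was unique and took 2029 counts, and Gm23767, also unique, took 6175. Of the 17 named Snord116 genes, Snord116l12 and Snord116l9 had counts, with 26 for Snord116l9. The other 15 were at 0, of which 14 shared the commonest sequence and Snord116l14 was unique. For the SNORD115 array, 91.8% of counts fell on its 39 unique copies. A level for the whole array cannot be read from these tables.

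**Figure D5:**
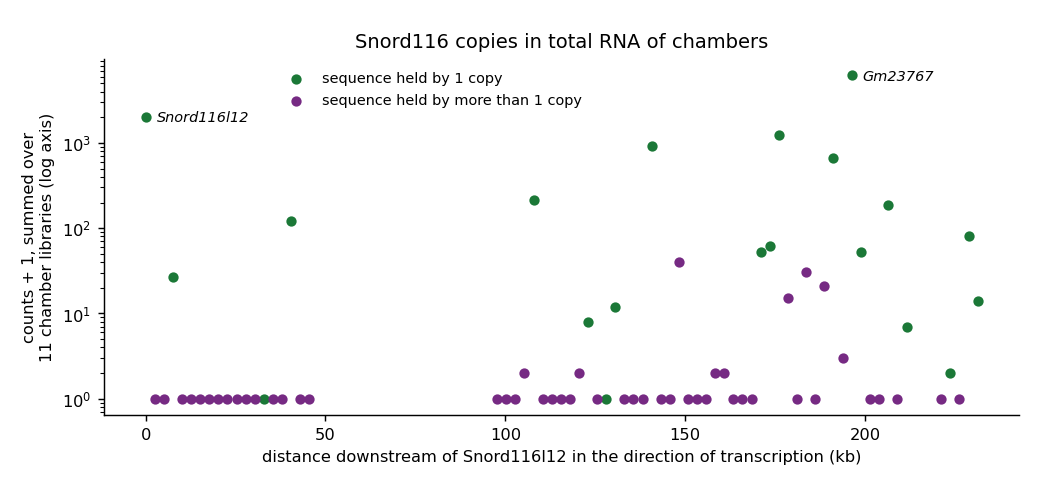
Counts plus 1, summed over the 11 chamber libraries of total RNA on a log axis, for each of the 70 SNORD116 copies by distance from Snord116l12 in kb. Copies with a sequence of their own (green) hold nearly all counts, led by Gm23767 and Snord116l12, and most copies with a shared sequence (purple) sit at 0 counts.

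KCl depolarises neurons, and its comparison asked whether stimulation moved the region's transcripts in neurites. None of the 7 members tested was called by edgeR, where 1 of 28232 genes was called, a share of 0.00354%, with the 1 call higher (0.00354%) and a share of 0% lower. Unadjusted, 2 members had p under 0.05 in edgeR, a share that was not counted over all genes and so cannot be judged. DESeq2 called 2, Snord116l12 and Snhg14, both higher, where it called 1.08% of all genes higher. The median log2 fold change was 0.23 over the members and -0.53 over all genes.

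Snhg14 had 251, 262 and 237 CPM in KCl chambers KCL1, KCL1a and KCL4, against 21.4 to 280 CPM with a median of 157 CPM in control chambers. All 3 lay above 7 of the 8 controls, and C1 at 280 CPM was higher. The edgeR log2 fold change was 2.22 (SE 0.73, adjusted p = 0.611), and 1.09 with no term for the kind of title (adjusted p = 1). With the counts of the lncRNA tables it was 0.99 (adjusted p = 0.952). The difference in mean log2(CPM + 0.1) was 0.85 (exact permutation p = 0.0848, adjusted p = 0.204), and 0.25 with the lncRNA tables (exact permutation p = 0.776).

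Ube3a had 205, 119 and 226 CPM in the KCl chambers, against 101 to 217 CPM in control chambers, with a log2 fold change of 1.4 (SE 0.72, edgeR adjusted p = 0.837). Snrpn had 310, 206 and 282 CPM, against 44.3 to 1552 CPM, and Ndn had 61.6, 36.5 and 97.3 CPM, against 0 to 228 CPM. Snrpn and Ndn turned on sc3, the deepest control. Their log2 fold changes were -1.19 and -0.35 with it and 3.48 and 4.56 without it (edgeR adjusted p = 0.00909 and 0.0099), so that Snrpn, Ndn and Snord116l12 were called higher in KCl chambers when sc3 was left out. In that fit 3.61% of all genes were called higher, and the term for the kind of title left Ctrl3 and Ctrl4 as the controls of the same kind. Without that term as well, an alternative chosen after seeing the data, none of the 3 was called, at log2 fold changes of 1.39 for Snrpn, 1.56 for Ndn and 0.05 for Snord116l12 (edgeR adjusted p = 0.532, 0.541 and 0.991). Magel2 with 3.52, 13.3 and 3.77 CPM and Mkrn3 with 2.11, 7.22 and 5.29 CPM in KCl chambers lay within or below the control ranges.

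Snord116l12 showed how far the kind of control library mattered. It had 94.6, 10.3 and 10.2 CPM in KCL1, KCL1a and KCL4. The 5 controls titled by a bare number had 20.7 to 110 CPM, and the controls titled with letters, as all KCl libraries are, had 0.524 in Ctrl3, 1.38 in Ctrl4 and 0 in sc3. With a term for the kind of title the log2 fold change was 8.27 (SE 1.57, edgeR adjusted p = 0.133). With no such term it was 0.25 (SE 1.26, edgeR adjusted p = 1). What sets the 2 kinds of title apart was not tested.

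Genes around the members put these values in context, in lists chosen with earlier results of these data known. Of 12 neighbours on chromosome 7, 11 were tested and 3 were higher in synaptosomes after TMM, with a median of 0.9, although on whole-table CPM all 3 averaged lower in synaptosomes. Gabra5, a GABA-A receptor subunit gene, averaged 18.9 CPM in synaptosomes and 23.5 CPM in control chambers (log2 fold change 3.43, edgeR adjusted p = 0.00083). Herc2, which encodes a ubiquitin ligase, averaged 90.2 CPM in synaptosomes and 321 CPM in control chambers (log2 fold change 2.05, edgeR adjusted p = 0.0295). Of 14 genes for box C/D snoRNP proteins and assembly factors, 12 were tested and 2 were lower. Fbl, the methyltransferase fibrillarin, had 0.106 ± 0.0396 CPM in synaptosomes (SD, n = 3) and 31.5 ± 18.8 CPM in control chambers (SD, n = 8), with an edgeR adjusted p of 0.00606. Snu13, which binds the box C/D motif, had a log2 fold change of -3.42 (edgeR adjusted p = 0.0408).

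Of 12 nuclear noncoding RNAs tested, 9 were lower in synaptosomes, where 4.44% of all genes were, with a median log2 fold change of -4.31. Xist, the noncoding RNA of X inactivation, had no count in the pools, which came from male mice. Neat1, the scaffold of paraspeckles, averaged 0.358 CPM in synaptosomes and 111 CPM in control chambers (log2 fold change -4.48, edgeR adjusted p = 0.00161). The log2 fold changes were -5.12 for Kcnq1ot1 and -4.35 for Firre. Snhg14 stood at a log2 fold change of 0.25 in the same fit, and lower, as given above, with the counts of the lncRNA tables. The difference between it and this list was not tested. Rian at -0.94, Pvt1 at 0.03 and Airn at -3.32 were the RNAs of the list that were tested and not called. Of 35 other imprinted genes, 2 were higher and 4 were lower, against 2.27% and 4.44% of all genes, with a median log2 fold change of -0.78. Of these 4, Meg3, Mirg and Kcnq1ot1 are also among the 9 nuclear RNAs. Gnas, which encodes a G-protein subunit, had 3.51 after TMM but averaged 68.3 CPM in synaptosomes and 86.9 CPM in control chambers. The log2 fold changes of Meg3 and Rtl1 were -5.84 and -5.31. None of these lists held a gene called between KCl and control chambers.

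Of the reported partners, Htr2c had 7.67 ± 0.503 CPM in synaptosomes (SD, n = 3) and 19.3 ± 19.1 CPM in control chambers (SD, n = 8). Its log2 fold change after TMM was 2.76 (SE 0.76, edgeR adjusted p = 0.0375), opposite in sign to the whole-table CPM. Ankrd11, a predicted partner of SNORD116, had a log2 fold change of -0.02 (edgeR adjusted p = 0.985). In KCl against control chambers the values were -0.09 for Htr2c and 2.14 for Ankrd11 (edgeR adjusted p = 0.996 and 0.696).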

How the data were processed

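Libraries were made with TruSeq total RNA and NEBNext small RNA kits for synaptosomes and with SMARTer kits for chambers. Per the labels, the authors used bcl2fastq 2.20.2, cutadapt 1.11.0, STAR 2.5.2b and featureCounts 1.5.1 for total RNA and Bowtie 1.1.2 for small RNA on mm10, with snOPY as the snoRNA annotation. The deposited values used here were raw counts per gene or snoRNA entry, and the 55 normalized or microRNA columns of samples were not used. Of 48709 gene identifiers, 48349 had a symbol.

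CPM were computed from the counts. Groups were compared with edgeR 4.0.16 (R 4.3.3; TMM, filterByExpr, quasi-likelihood test), with DESeq2 1.42.0 as an alternative. The KCl fit had a term for the kind of title. A name with several snoRNA entries was represented by its highest entry. Single values were compared by exact two-sided permutation tests (scipy 1.17.1). On simulated counts with 4-fold changes the fits recovered 49.5% (KCl, 28232 genes), 61% (synaptosomes, 29926 genes) and 90% (snoRNA, 193 names) of changed features. False calls made up 6.6, 3.94 and 10% of the calls in the same order. The simulated spread was the same for every feature and was not taken from these data. These shares therefore do not measure what the fits recover here. Alternatives covered scaling, filters, tools, entries, blocks and each library left out.

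Every member was accounted for. Per-library values were given for host and protein-coding members with a count and for the Snord116 genes of highest CPM. They were also given for snoRNA names averaging at least 1000 CPM in either preparation. At most 4 called genes per comparison list were picked by adjusted p. Further list genes were named as shared between lists or as not called. GM names, Gm23767 and the printed SNORD115 copies were chosen after their values were seen. The members and lists were chosen with earlier results of these data known. No 2 libraries of a group agreed within sampling noise. Sequences came from GENCODE vM21. Intervals and floors cover counting error only. The values of 1 gene called in a comparison list are not reported here.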

Additional observations from a re-analysis of the deposited data

Results flagged for a closer look

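Control chamber values stood apart from the rest of their group in 5 of the 16 sets checked, by a limit that chance passes in about 1 of 20 groups of normally spread values. The sets share the same libraries, so they are not independent. Control library sc3 had the highest Snrpn at 1552 CPM, with the next control at 268 CPM, and the highest Ndn at 228 CPM, with the next at 66.7 CPM. Its ratio of Snhg14 to Ube3a was the lowest at 0.212, with the next at 0.813. Control library Ctrl3 had the highest Magel2 at 26.7 CPM, with the next at 12.6 CPM, and the highest Mkrn3 at 67.1 CPM, with the next at 16.6 CPM.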

How the results depend on the processing

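SNORD116L12 and SNORD116L14 kept their direction and call in every alternative, and so did SNORD64. Without the 408 gene models, the log2 differences in level between synaptosomes and control chambers were -0.1 for Snhg14, 0.01 for Snrpn, 0.36 for Ube3a, 1.35 for Ndn and 0.24 for Magel2, that of Snhg14 in KCl chambers was 1.0, and the fitted Magel2 change in synaptosomes was 0.4. Without the deepest control, sc3, the level differences were -3.36 for Magel2 in synaptosomes and 1.09 for Snrpn in KCl chambers, and the fitted changes were 0.98 for Snrpn in synaptosomes and -0.37 for Magel2, 4.56 for Ndn and 3.48 for Snrpn in KCl chambers. Summing entries gave a SNORD115 share difference of 0.34.

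Members called higher in KCl chambers were 0 as fitted, 2 with DESeq2, 1 with no filter and 3 without sc3. Over all genes 0.00354% were higher as fitted, 1.08% with DESeq2, 3.61% without sc3 and 40 of 43942 with no filter. Members called lower in synaptosomes were 0 as fitted, 2 with DESeq2, 7 with the library total alone, 1 with no filter and 2 without sc3. Over all genes 4.44% were lower as fitted, 25.8% with DESeq2 and 24.3% without sc3. The library total alone gave 27910 of 29926 genes lower, and no filter gave 1627 of 43730. With the library total alone, the synaptosome changes were -3.36 for Ndn, -3.63 for Snhg14 and -2.96 for Ube3a, and the KCl change of Magel2 was -0.68. It was -0.13 with RLE factors. Snhg14 from the lncRNA tables gave -1.37. With no term for the kind of title, the KCl change of Ndn was 0.39, and without sc3 as well it was 1.56, with Snrpn at 1.39.

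With a replicate block by the number in the title, no member was called in KCl chambers, Ndn was at 1.13 and Snrpn at 0.84. The block without the title term, chosen after seeing the data, gave 1.3 and 1.38. Deviations of same-numbered libraries correlated at 0.03, -0.12 and -0.3. These few values, taken from means of few libraries, cannot show whether a shared number pairs them, and the labels do not say.

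Leaving out each library gave log2 ratio differences of -0.76 to -0.38 for Snhg14 over Ube3a and -0.95 to 0.16 for Snhg14 over Snrpn in synaptosomes, and of 0.3 to 0.83 and -0.62 to 0.5 in KCl chambers. Share differences ranged from -3.95 to -3.64 for SNORD116, 1.38 to 1.78 for SNORD115 and 4.15 to 4.67 for SNORD64. With 2 pools the smallest exact permutation p is 0.0714. Counts called ranged from 1 to 3 higher among snoRNA members, 0 to 3 higher in KCl chambers and 0 to 2 lower in synaptosomes. Over all features the same calls ranged from 57 to 74, 0 to 1013 and 56 to 6818. Changes of Magel2, Ndn and Snrpn ranged from -0.37 to 2.24, -1.22 to 4.56 and -1.76 to 3.48 in KCl chambers and from -0.37 to 0.71, -0.08 to 1.39 and -0.98 to 0.98 in synaptosomes.

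Over all genes, 680 were higher and 1328 lower in synaptosomes, against 1716 and 7718 with DESeq2, 33 and 27910 with the library total alone, 2720 and 6818 without sc3, and 527 to 664 and 56 to 70 without a pool. In KCl chambers 1 gene was called, against 305 higher and 43 lower with DESeq2 and 40 and 16 with no filter. With the library total alone the median over all genes in synaptosomes was -6.92. Low counts limit SNORD64 in chambers, SNORD115 entry URS00008472B9 in synaptosomes, and Mkrn3 and the snoRNA genes in synaptosome total RNA.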
